A study of Homo sapiens with 4 samples.

Results

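The GATA transcription factors and their FOG partners were followed in H1 cells, a human embryonic stem cell line, collected on day 2 of differentiation toward blood, in the presence or absence of IWP2, a small molecule that blocks the enzyme Porcupine and so keeps Wnt proteins from being secreted. The genes were chosen by symbol: GATA1, GATA2, GATA3, GATA4, GATA5, GATA6, ZFPM1 and ZFPM2, which are 8 of the 58365 rows of the expression table, with 1 row each. All cells received activin A at 40 ng/ml and BMP4 at 50 ng/ml in custom mTeSR1 medium per the sample labels, and the study's methods give these amounts the other way round. The control group (DMSO, 2 libraries) and the IWP2 group (2 libraries) differed by the inhibitor, whose dose is not given in the sources used here. Undifferentiated cells were not analysed here, so no level can be set against the starting stem cells. H1 is a single line and the sources do not say whether the libraries of a group came from separate cultures, so every p-value measures only the spread between these libraries, which may be technical.

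GATA factors are zinc finger proteins that bind DNA at the letters GATA. GATA1, GATA2 and GATA3 are known for blood, trophoblast and T cell development, while GATA4, GATA5 and GATA6 are known for heart, gut and endoderm, and are switched on early as cells pass through the primitive streak. ZFPM1 and ZFPM2 encode FOG1 and FOG2, cofactors that do not bind these sites themselves but dock onto a GATA zinc finger and bring in co-repressors such as the NuRD complex and CtBP.

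The values are FPKM (fragments per kilobase of gene model, scaled to library size), which take gene length into account, so that levels of different genes can be set side by side. The summed FPKM per library ranged from 616418 to 653850, and 13831 to 13926 genes reached 1 FPKM. Absolute depth is unknown, but the lowest values step by whole reads and give depths of 0.889 to 1.1 relative to the first DMSO library. The summed levels of mesoderm and of pluripotency markers differed between the groups. The sum of 12 nascent mesoderm factors was 1001 and 1257 FPKM in DMSO against 88.7 and 90.1 in IWP2. That of 6 pluripotency factors was 1167 and 969 against 2387 and 2396. Without APLNR and POU5F1, their most abundant genes, these sums were 621 and 745 against 85.7 and 87.7 FPKM, and 416 and 397 against 533 and 553 FPKM. In bulk RNA, fewer cells of a type and less RNA per cell cannot be told apart, which applies to each difference below.

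Upstream sequence is shown for the 3 genes that stood above 5 FPKM in DMSO and had a RefSeq window, because GATA6 fell with IWP2 while GATA2 and GATA3 were not called. Of the 8 genes, 5 matched RefSeq promoter windows (GRCh38.p14, 250 bases before to 50 after a RefSeq start). GATA4, which also fell, had no window, so GATA6 is the only fallen gene shown. Each stretch is cut to the bases upstream of the gene's span in the expression table and reads 5′ to 3′ on the gene's own strand. Capitals mark an E-box (CAGCTG), the CCAAT box (CCAAT) and the core of a TCF/LEF site (CTTTGA), or their reverse complements.
GATA6, chr18:22169339-22169442, plus strand: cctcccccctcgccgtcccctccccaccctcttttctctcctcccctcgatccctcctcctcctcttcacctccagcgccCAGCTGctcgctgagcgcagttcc
GATA3, chr10:8053391-8053603, plus strand: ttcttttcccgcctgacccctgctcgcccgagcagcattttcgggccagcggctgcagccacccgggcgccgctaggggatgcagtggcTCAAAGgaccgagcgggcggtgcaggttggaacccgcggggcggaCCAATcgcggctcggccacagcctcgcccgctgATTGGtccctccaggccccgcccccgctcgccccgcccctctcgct
GATA2, chr3:128493186-128493451, minus strand: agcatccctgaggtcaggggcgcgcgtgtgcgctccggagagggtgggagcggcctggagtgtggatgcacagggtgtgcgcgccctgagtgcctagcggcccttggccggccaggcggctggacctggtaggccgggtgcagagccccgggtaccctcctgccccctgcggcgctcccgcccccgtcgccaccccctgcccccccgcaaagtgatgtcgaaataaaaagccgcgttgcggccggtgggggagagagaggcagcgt

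The GATA6 stretch is 68.3% G and C, the GATA3 stretch 72.8% and the GATA2 stretch 72.2%. The GATA6 stretch holds CAGCTG 24 bases upstream of the gene's span. The GATA3 stretch holds the reverse complement of CTTTGA 124 bases upstream, and the CCAAT box 79 bases upstream and, on the other strand, 46 bases upstream. The GATA2 stretch holds none of these letters. It lies within the span of the antisense gene GATA2-AS1, and part of the GATA3 stretch lies within that of GATA3-AS1. A single full window of 300 bases per gene, the one over the start of the gene's span, was searched on both strands, and so were all 35116 such windows of RefSeq genes. The TCF/LEF core was in the windows of GATA1 and GATA3 and in 12.9% of all windows. The CCAAT box was in those of GATA3 and GATA6 (34.6% of all windows), and the E-box in that of GATA6 (17.9%). GATA sites themselves, searched as AGATAA, were in 0 of the 5 windows and 10.3% of all windows. The form TGATAA was also in 0 of the 5, against 7.53% of all. The T-box core AGGTGT was in 0 of the 5, against 11.4%, and the TATA box TATAAA in 0 of the 5, against 11.5%.

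GATA6 was the most abundant member in DMSO and fell furthest with IWP2. The gene (ENSG00000141448.8, chr18:22169443-22202528, plus strand), which drives endoderm and early heart formation, stood at 119 and 134 FPKM in the DMSO libraries and at 3.52 and 3.01 FPKM in the IWP2 libraries. The groups did not overlap, with means of 126.5 ± 11.3 FPKM (SD, n = 2) in DMSO and 3.26 ± 0.364 FPKM (SD, n = 2) in IWP2, so that the IWP2 mean was 2.58% of the DMSO mean, a 38.8-fold difference. On the log2(FPKM + 1) scale, which understates changes at low levels, GATA6 fell by 4.90 (SE 0.12, limma adjusted p = 0.00019), a 29.9-fold fall with a 95% interval of 24.4 to 36.7. Only 12 of the 14022 genes tested had a more negative fitted change, where a gene was tested if its mean over the 4 libraries was at least 1 FPKM.

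GATA4 also fell, from a lower level. The gene (ENSG00000136574.17, chr8:11676959-11760002, plus strand), a partner of heart factors, stood at 62.6 and 76.1 FPKM in DMSO and at 3.41 and 3.54 FPKM in IWP2. The libraries of each group lay far apart from those of the other, at 69.4 ± 9.61 FPKM (SD, n = 2) in DMSO and 3.47 ± 0.0920 FPKM (SD, n = 2) in IWP2, which is 5.01% of the DMSO mean. GATA4 fell by 3.97 on the log2 scale (SE 0.13, limma adjusted p = 0.00025), a 15.7-fold fall with a 95% interval of 12.5 to 19.5. GATA6 exceeded GATA4 by 1.9 and 1.77 times in the DMSO libraries and by 1.03 times in an IWP2 library, while in the other IWP2 library the ratio was 0.849, so the pair moved from a clear order to levels that overlapped.

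GATA5, the remaining member of the heart and endoderm branch, was low in both groups. GATA5 (ENSG00000130700.6, chr20:62463497-62475970, minus strand) stood at 2.42 and 3.16 FPKM in DMSO and at 2.51 and 2.67 FPKM in IWP2, and the groups overlapped. Its fitted difference was -0.07 on the log2 scale, with a 95% interval of -0.50 to 0.36 (limma adjusted p = 0.82). The IWP2 mean was 92.7% of the DMSO mean. On the log2(FPKM + 1) scale a gene this low cannot fall by as much as GATA4 did, so their fitted changes cannot be compared.

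**Figure D1:**
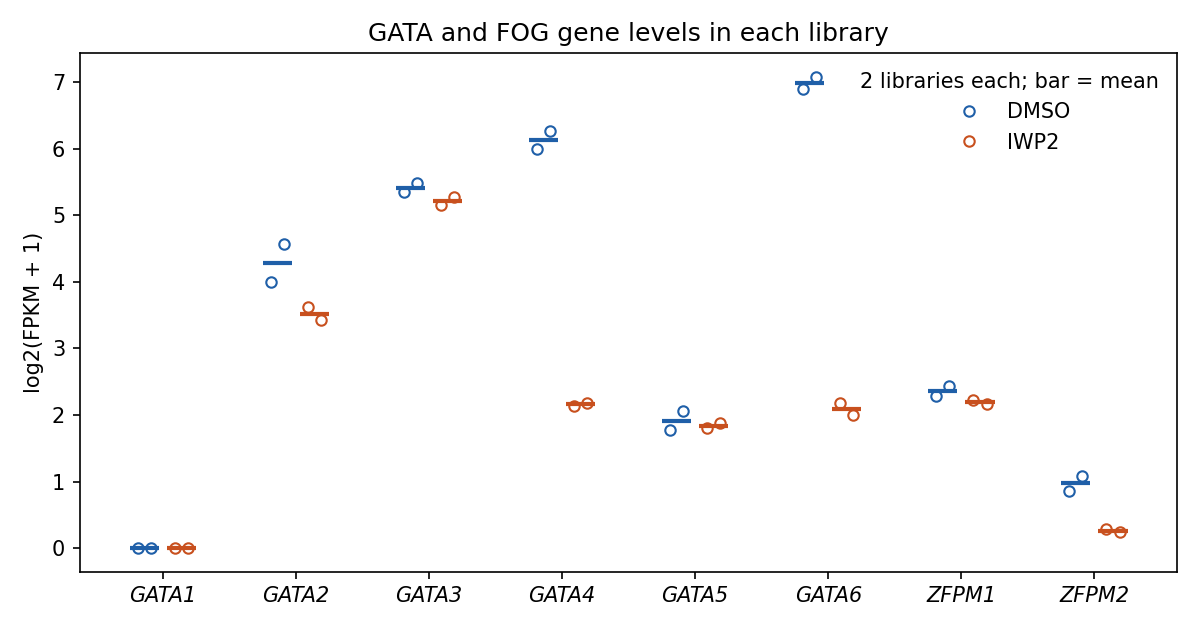
Levels of the 8 genes in each library, on a log2(FPKM + 1) scale; circles are the 2 DMSO (blue) and 2 IWP2 (orange) libraries and bars their means. GATA4 and GATA6 drop in IWP2 to about the level of GATA5 and ZFPM1, whereas GATA3 stays between 34.6 and 43.7 FPKM in all 4 libraries and GATA1 is at 0.

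In the blood and trophoblast branch, no member was called, and GATA3 had the smallest fitted difference of the 4 members above 5 FPKM in DMSO. GATA3 (ENSG00000107485.15, chr10:8053604-8075198, plus strand), a regulator of trophoblast and T cells, stood at 39.7 and 43.7 FPKM in DMSO and at 34.6 and 37.7 FPKM in IWP2. The 2 IWP2 libraries were below the 2 DMSO libraries by a small margin. The fitted difference was -0.20 on the log2 scale, with a 95% interval of -0.45 to 0.05 (limma adjusted p = 0.25).

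GATA2 (ENSG00000179348.11, chr3:128479427-128493185, minus strand), which is needed for blood stem and progenitor cells, stood at 14.9 and 22.6 FPKM in DMSO and at 11.3 and 9.74 FPKM in IWP2. The groups did not overlap, but the DMSO libraries were themselves far apart. The fitted difference was -0.76 on the log2 scale (SE 0.21, 95% interval -1.28 to -0.23), and the limma adjusted p of 0.074 missed the threshold of 0.05. Without the first DMSO library the difference was -1.04 and the limma adjusted p = 0.037, and without the second DMSO library they were -0.47 and 0.16, so the call depended on which library stood for the control.

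GATA1 (ENSG00000102145.13, chrX:48786554-48794311, plus strand), the factor of red cell and platelet precursors, was listed at 0 in all 4 libraries. Of 13 genes that GATA1 is known to activate in red cells, 9 were under the filter on low values, and the globin genes HBZ, HBG1 and HBA2 were also listed at 0 in every library. Other globin genes were low but not all at 0. HBG2 stood at 0.578 and 0.904 FPKM in DMSO and at 0.115 and 0.552 FPKM in IWP2, and HBE1 and HBA1 were above 0 in some libraries.

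The FOG partners were expressed at low levels. ZFPM1 (FOG1; ENSG00000179588.8, chr16:88453317-88537016, plus strand), the cofactor of GATA1 in red cells and platelets, stood at 3.86 and 4.42 FPKM in DMSO and at 3.70 and 3.50 FPKM in IWP2. These values lay close together and the fitted difference was -0.16, with a 95% interval of -0.51 to 0.20 (limma adjusted p = 0.50). ZFPM2 (FOG2; ENSG00000169946.13, chr8:104590733-105804532, plus strand), the cofactor of GATA4 in the heart, stood at 0.817 and 1.12 FPKM in DMSO and at 0.221 and 0.181 FPKM in IWP2. Both IWP2 libraries were below both DMSO libraries, and the IWP2 mean was 20.7% of the DMSO mean. The ZFPM2 mean over the 4 libraries, 0.586 FPKM, kept it out of the test; when the minimum was lowered to 0.1 FPKM, ZFPM2 differed by -0.71 on the log2 scale with a limma adjusted p = 0.060. ZFPM1 exceeded ZFPM2 by 4.73 and 3.93 times in DMSO and by 16.8 and 19.4 times in IWP2.

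In all, 2 of the 6 tested members were called at an adjusted p under 0.05, both lower in IWP2, against 15.2% of all tested genes called in either direction, 8.44% called lower and 6.75% called higher. The 2 others, GATA1 and ZFPM2, were under the filter. Both IWP2 libraries were below both DMSO libraries for 5 of the 6 tested members, and for 31.9% of all tested genes. With 2 libraries a group, the exact permutation test of a single gene cannot go below p = 0.333 (two-sided), and it gave that value for each member whose groups did not overlap.

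**Figure D2:**
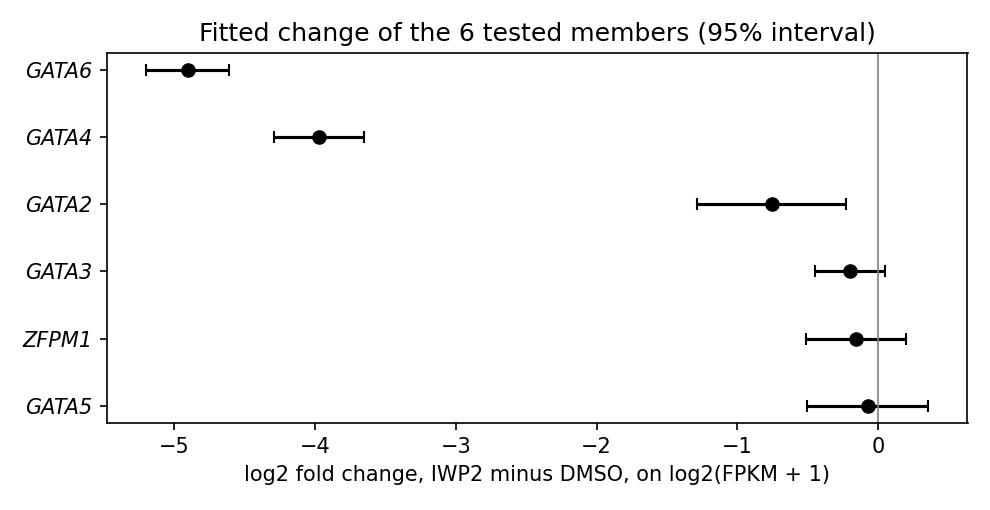
Fitted log2 fold change (IWP2 minus DMSO, on log2(FPKM + 1)) of the 6 tested members, with 95% intervals from the limma fit. The intervals of GATA6 and GATA4 lie below -3.65, that of GATA2 lies between -1.28 and -0.23, and those of GATA3, ZFPM1 and GATA5 include 0.

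**Figure D3:**
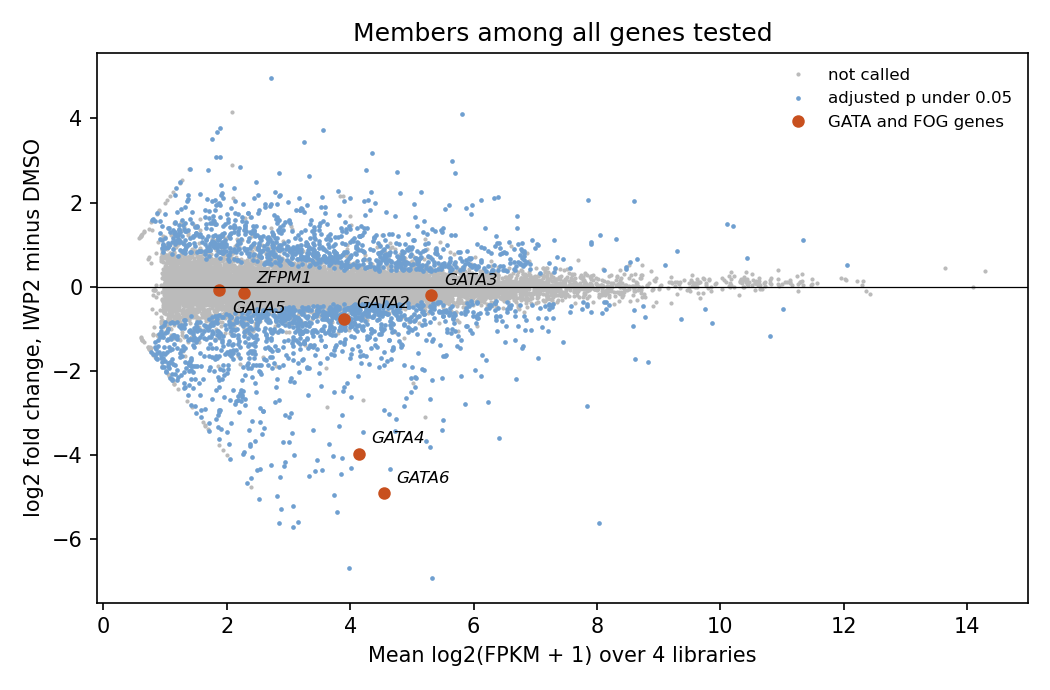
Fitted log2 fold change against mean level, log2(FPKM + 1), for the 14022 genes tested; blue points passed an adjusted p under 0.05 and orange points are the 6 tested members. GATA6 and GATA4 lie far below the band of genes that were not called, GATA2 lies at its lower border and the other 3 lie inside it.

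The order of the family was rearranged by these unequal changes. In DMSO the means ran from GATA6 (127 FPKM) through GATA4 (69.4), GATA3 (41.7), GATA2 (18.8), ZFPM1 (4.14) and GATA5 (2.79) to ZFPM2 (0.971), with no overlap between neighbours. In IWP2 GATA3 led with a mean of 36.2 FPKM, followed by GATA2 with 10.5. ZFPM1 (3.60), GATA4 (3.47) and GATA6 (3.26) came next and overlapped as neighbours, and GATA5 (2.59) and ZFPM2 (0.201) were last.

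The 6 GATA genes summed to 238 and 280 FPKM in DMSO and to 55.3 and 56.7 FPKM in IWP2, a 4.63-fold lower mean. GATA4, GATA5 and GATA6 made up 77.1% and 76.3% of that sum in DMSO and 17.1% and 16.3% in IWP2. GATA3 alone went from 16.7% and 15.6% to 62.5% and 66.6% of the sum without a called change of its own. Within a library, GATA6 was 2.99 and 3.08 times as abundant as GATA3 in DMSO and 0.102 and 0.0797 times in IWP2. The ratio of GATA3 to GATA2 moved less, from 2.66 and 1.93 in DMSO to 3.06 and 3.88 in IWP2.

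**Figure D4:**
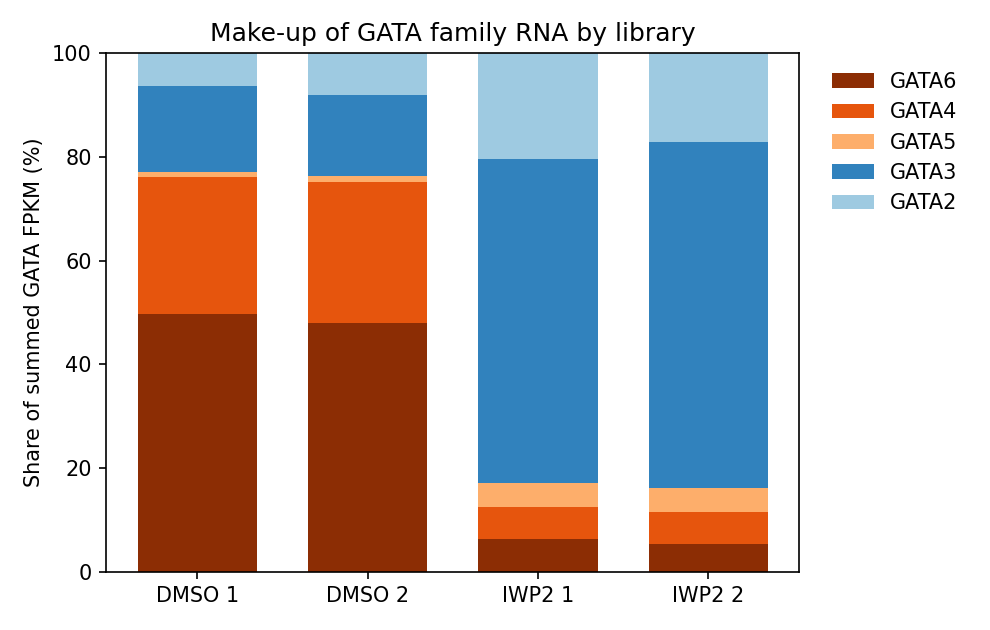
Share of the summed GATA FPKM (percent) that each GATA gene took in each of the 4 libraries; GATA1 is at 0 and has no band. GATA6 takes 49.8% and 48.0% of the DMSO bars and 6.37% and 5.30% of the IWP2 bars, where GATA3 takes most.

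Antisense genes lie beside 4 of the members. GATA6-AS1 (ENSG00000266010.1, chr18:22166898-22168968, minus strand), a long noncoding RNA on the opposite strand whose start lies 475 bases before GATA6 and which runs away from it, stood at 67.2 and 79.6 FPKM in DMSO and at 1.75 and 1.07 FPKM in IWP2. GATA6-AS1 fell by 4.96 on the log2 scale (SE 0.17, limma adjusted p = 0.00027), close to the fall of GATA6 itself. GATA3-AS1, whose start lies 120 bases before GATA3 and which also runs away from it, stood at 5.47 and 6.02 FPKM in DMSO and at 2.28 and 3.51 FPKM in IWP2, with a fitted difference of -0.81 (limma adjusted p = 0.052). GATA2-AS1 overlaps GATA2 by 3974 bases and stood at 4.47 and 4.73 FPKM against 3.36 and 4.28 (limma adjusted p = 0.40). The library kit does not mark strand, so reads in the stretch that GATA2 and GATA2-AS1 share cannot be told apart; the spans of GATA6 and GATA6-AS1 do not overlap. ZFPM2-AS1 was at or near 0 in every library.

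The nearest protein-coding genes on either side of the members were examined after the members' values had been seen. Of these 16 neighbours, 11 were tested and 1 was called: RBBP8NL, beside GATA5, at 0.619 and 0.309 FPKM in DMSO and 3.09 and 2.41 FPKM in IWP2 (limma adjusted p = 0.016). Over all tested genes 15.2% were called, so this count does not set the neighbours apart. MIB1, a ubiquitin ligase of the Notch pathway that lies 298 kb before GATA6, stood at 10.1 and 12.6 FPKM in DMSO and 9.41 and 8.20 FPKM in IWP2 (limma adjusted p = 0.21). NEIL2, a DNA repair enzyme gene that lies 9.64 kb after GATA4, stood at 5.06 and 5.30 FPKM against 5.87 and 6.81 (limma adjusted p = 0.28).

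The profile most like that of GATA6, by the root mean square difference of centred log2(FPKM + 1) values over the 4 libraries among 14021 other genes, was that of GATA6-AS1 (0.089). PRAC1 (0.136) and LGR5 (0.195), a receptor for R-spondins and a Wnt target, came next. PRAC1 was at 23.7 and 25.2 FPKM in DMSO and listed at 0 in both IWP2 libraries. For GATA3 the nearest profiles were those of PPP4C (0.0024), ABT1 (0.0067) and WDR5 (0.0069), each with limma adjusted p between 0.23 and 0.29. With 4 libraries in 2 groups, such likeness largely follows the size of the group difference.

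The FOG cofactors act through co-repressors, and 14 of the 16 examined were not called. Over all tested genes 15.2% were called, 8.44% lower and 6.75% higher, so this count does not set the co-repressors apart. The same shares are the ones to set beside each list count below that comes from the fit of all libraries. With a library left out, fewer genes were called over all tested genes, so the shares do not apply to those counts. Of these 16 genes of the NuRD complex, CtBP and the FOG1 partner TACC3, 1 was called higher and 1 lower, with a median log2 difference of -0.12 against -0.02 over all tested genes. CTBP2 rose by 0.49 (limma adjusted p = 0.015) and MTA2 fell by 0.35 (limma adjusted p = 0.039). The call of MTA2 was kept under 1 of 11 alternatives (limma adjusted p 0.041 to 0.20) and that of CTBP2 under 7 of 11 (0.011 to 0.13), and both were lost whichever library was left out. With either IWP2 library left out, no call was left in this list. In the fit of all libraries, 4 of the 16 had a limma unadjusted p under 0.05, against 4245 of all 14022 tested genes. The summed level of the 16 was 1258 and 1259 FPKM in DMSO and 1252 and 1210 in IWP2, and without HDAC2, the most abundant, 1015 and 1002 against 1018 and 1011. Of 6 other genes with GATA-type zinc fingers, limma called 0, and 0 had an unadjusted p under 0.05. In this list GATAD2A stood at 93.6 and 94.6 FPKM against 89.1 and 83.3, and RERE at 46.1 and 57.1 FPKM against 49.8 and 46.5. GATAD2B, a NuRD subunit, stood at 35.9 FPKM in the first DMSO library and between 4.89 and 5.59 FPKM in the other 3, so its fitted difference of -1.39 (limma adjusted p = 0.30) rests on 1 library. Without the first DMSO library the difference was -0.15, and without the second it was -2.63 and was called.

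Among heart partners of GATA4, more genes were called lower than higher, and the mesoderm factors were called lower throughout. Of 14 cardiac partners, 11 were tested, 4 were called lower and 1 higher (median -0.36). NKX2-5, a homeobox factor that pairs with GATA4, stood at 11.1 and 9.04 FPKM in DMSO and 0.616 and 1.502 FPKM in IWP2 and fell by 2.45 (limma adjusted p = 0.0046). The fitted log2 change was -2.13 for HAND2 and -2.02 for TBX20, while NR2F2, a nuclear receptor that binds FOG2, rose by 1.34. With either IWP2 library left out, 1 cardiac gene was called lower and 0 higher. The 11 tested nascent mesoderm factors were all called lower (median -3.60), and 8 were still called with either IWP2 library left out. The fitted log2 changes were -6.91 for APLNR, -5.70 for MESP1, -4.96 for LHX1 and -4.36 for GSC.

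The tested endoderm factors, which GATA4 and GATA6 accompany in the gut lineage, all had negative fitted differences, but not all were called. Of 12 listed, 9 were tested, 6 were called lower and 3 were not called (median -1.58). CER1, a secreted antagonist of Nodal and BMP, stood at 1612 and 2048 FPKM in DMSO and 38.6 and 34.2 FPKM in IWP2 and fell by 5.60 (limma adjusted p = 0.00019). The fitted log2 changes were -3.41 for EOMES, -2.18 for FOXA2 and -1.94 for CXCR4, and with either IWP2 library left out, 2 genes of the list were called. SOX17, which was chosen after its values were seen, stood at 155 and 104 FPKM in DMSO and 79.7 and 94.9 FPKM in IWP2 (limma adjusted p = 0.15), so this defining endoderm gene was present in IWP2 libraries in which GATA4 and GATA6 were near 3 FPKM.

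Many partners and targets of GATA1 and GATA2 in blood were sparse at this day, but not all. TCF3 stood at 160 and 160 FPKM in DMSO and 164 and 152 FPKM in IWP2. LDB1 stood at 50.5 and 49.8 FPKM in DMSO and 54.6 and 49.8 FPKM in IWP2, and neither was called. Of 14 blood and endothelial partners, 7 were under the filter, TAL1 among them with at most 0.0894 FPKM. Of the 7 tested, 3 were called lower and 4 were not called (median -0.24). LYL1 was at most 3.88 FPKM in DMSO (fitted log2 change -1.81), RUNX1 at most 2.51 FPKM (-1.43) and KLF1 at most 2.33 FPKM (-1.19). With either IWP2 library left out, these calls were lost. In the fit of all libraries, 3 of the 7 had a limma unadjusted p under 0.05, against 4245 of all 14022 tested genes. Among the red cell targets of GATA1, 4 were tested and 2 were called lower: GYPB, a glycophorin of the red cell surface, which fell by 2.97 from 9.29 and 9.25 FPKM, and KLF1. With the second DMSO library or either IWP2 library left out, 1 of the 4 was called.

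Trophoblast and amnion genes, which GATA2 and GATA3 mark together with TFAP2 factors, did not move in a single direction. Of 14 listed, 9 were tested, 4 were called higher, 2 lower and 3 were not called (median 1.10). KRT7, a keratin of simple epithelia, rose by 2.10, from 0.833 and 0.864 FPKM to 5.85 and 8.22 FPKM, and TFAP2A rose by 1.22, from 16.5 and 12.0 FPKM to 34.0 and 34.2 FPKM. The fitted log2 change was -2.42 for CDX2 and -1.32 for HAND1. Without the first IWP2 library 1 gene was called higher and 1 lower, and without the second, 0 and 1. The summed level of the list was 375 and 427 FPKM in DMSO and 266 and 293 in IWP2, with ELF5 at 0 in every library. The lower sum rested on HAND1, also a mesoderm and heart gene: without it the sum was 141 and 104 FPKM in DMSO and 165 and 174 in IWP2, a check added after the data were seen. Whether trophoblast or amnion cells were present, and their part in the GATA2 and GATA3 levels, was not tested.

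**Figure D5:**
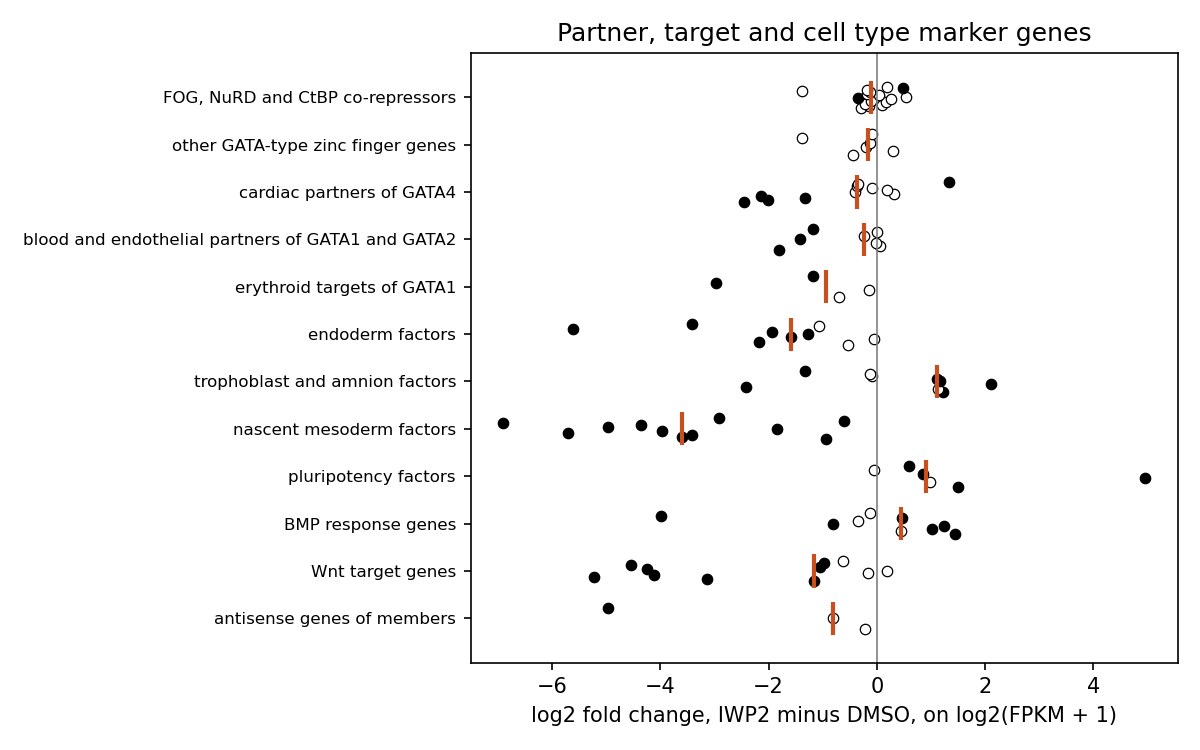
Fitted log2 fold change (IWP2 minus DMSO) of each tested gene in 12 lists of partner, target and marker genes; filled points passed an adjusted p under 0.05, open points did not, and orange lines are list medians. The nascent mesoderm list lies wholly below 0 with a median of -3.60, while the pluripotency list has a median of 0.91.

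Pluripotency and signalling genes show the state of the cells in which the GATA genes were measured. Of 6 pluripotency factors, 4 were called higher and 2 were not called (median 0.91): SOX2 rose by 4.96, POU5F1 by 1.5, DPPA4 by 0.85 and ZFP42 by 0.59. SOX2 was at 0.193 and 0.174 FPKM in DMSO and at 35.6 and 36.1 FPKM in IWP2. Of 11 Wnt targets, 8 were called lower and 3 were not called (median -1.16), with fitted log2 changes of -5.22 for SP5, -4.54 for LGR5, -4.24 for DKK1 and -4.12 for NKD1. Of 9 genes that respond to BMP, a known inducer of GATA2 and GATA3, 4 were called higher, 2 lower and 3 were not called (median 0.44). ID1 rose by 1.45, ID4 by 1.24 and ID3 by 1.01, while MSX1 fell by 3.99 from 36.3 and 29.6 FPKM to 1.04 and 1.23 FPKM. With either IWP2 library left out, 5 Wnt targets were called lower, 1 pluripotency factor higher and 1 BMP gene in each direction; without the first or the second DMSO library, 2 BMP genes were called higher. The part of these shifts in the levels of the GATA genes was not tested.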

How the data were processed

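RNA was measured by sequencing in 4 libraries of H1 derived cells, 2 with DMSO and 2 with IWP2, made with a TruSeq RNA kit. The authors deposited 1 table of FPKM values; its header names no unit, and the values were taken as FPKM from the description of the table, as they are not whole and sum to neither the fixed total of TPM or CPM nor the same total in each library. The submitters' processing notes name BWA, Bowtie, RSEM and hg19 with no role, but 55629 of the 55723 gene IDs shared with GENCODE release 29 have the same span there, which is GRCh38, so coordinates are given in GRCh38. The columns marked with a minus sign were taken as DMSO, and libraries are numbered as in the column names. In 2501 cases a value was above 0 but so small as to be a numerical zero, and was set to 0.

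Genes with a mean of at least 1 FPKM were tested on log2(FPKM + 1) with limma (version 3.58.1, R 4.3.3; moderated statistic with trend, two-sided, group as the only term), with Benjamini-Hochberg adjustment over 14022 genes and a threshold of 0.05. The study's methods name gene set and pathway software for RNA-seq and Student's test for its analyses in general; the moderated fit was used here in their place. The script was tested on simulated data. Alternatives changed the pseudocount, filter, scaling, trend, replicate block and libraries; no symbol of a member was repeated, so summing rows was not needed. From each list, up to 4 called genes with the largest change were named, or the 2 with the highest mean where none was called, and for GATA6 and GATA3 the 3 genes nearest in profile. TAL1, TCF3, LDB1, SOX17, GATAD2B, HDAC2, the neighbours, the globin genes and the other genes named for being at 0 were chosen after their values were seen. The members and lists were chosen with earlier results of these data known, and the lists overlap in part. Promoter windows came from RefSeq.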

Additional observations from a re-analysis of the deposited data

How the results depend on the processing

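GATA4 and GATA6 were called lower under all 11 alternatives, with changes of -4.27 to -3.83 (highest limma adjusted p 0.020) and -5.24 to -4.81 (0.019). GATA3 and ZFPM1 were called under none, and their differences were negative throughout. Leaving out 1 library at a time gave -1.04 to -0.47 for GATA2, called only without the first DMSO library, and -0.21 to 0.067 for GATA5, whose sign turned without the second DMSO library. GATA5 was called under none. The same step gave 58 to 657 genes higher and 180 to 718 lower, against 946 and 1183 with all libraries. The lowest counts came without the second IWP2 library, and 90 and 204 were left without the first; a lone library was then assumed to vary like the other group, and fewer libraries leave fewer degrees of freedom. With no filter on low values, 28460 genes were tested, and 312 were higher and 529 lower. The list counts follow these totals: without an IWP2 library, 13 of 24 moved by over 1.5 times. Leaving the most abundant gene out of a list's sum, an alternative chosen after seeing the data, turned the difference of the mean sums (IWP2 minus DMSO) from -121.3 to 47.0 FPKM for trophoblast and amnion genes and from -27.6 to 6.39 FPKM for co-repressors, and moved it from 1324 to 136 FPKM for pluripotency factors and from -1040 to -597 FPKM for nascent mesoderm factors. The labels share replicate numbers, and same-numbered libraries deviated together with r = 0.15 over genes in 2 pairs, too few to take the numbers as pairs. The mitochondrial share of the summed FPKM also followed the number. It was 9.57% (DMSO) and 8.95% (IWP2) in the libraries numbered 1, and 6.25% and 6.92% in those numbered 2. The fit with the replicate block called 862 genes higher and 1065 lower and changed no call of a member (GATA2 -0.76, limma adjusted p 0.085), but it called GATA3-AS1 lower (limma adjusted p 0.043, against 0.043 to 0.21 over 11 alternatives) and MTA3 higher (0.049), no longer called MTA2 (0.061), and added 1 higher call among trophoblast and amnion genes. FPKM without known depth limits what can be said of GATA1 and ZFPM2.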
